A study of Mus musculus with 12 samples.

Results

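The 9 genes described here encode proteins that fat cells release and that are best known from white fat: leptin (Lep), resistin (Retn), adiponectin (Adipoq), adipsin (Cfd), retinol-binding protein 4 (Rbp4), angiotensinogen (Agt), chemerin (Rarres2), Ccdc80 and the activin beta B subunit (Inhbb). They were chosen by name with earlier results of these data known, as was the scale of levels used below. All 9 were found among the 24452 genes of the deposited RPKM table. All 9 passed the filter on low values that left 12249 genes for testing. The levels come from RNA sequencing of brown adipose tissue, the heat-producing fat depot, taken from male mice of the strain C57BL/6J Bom, aged 12 weeks and kept at 30 °C on chow. In the ERRKO_CL and ERRKO_PBS groups (genotype ERRαγAd-/-), a Cre recombinase under the adiponectin promoter had deleted ERRα and ERRγ, nuclear receptors that switch on genes of oxidative metabolism, in fat cells. The WT_CL and WT_PBS groups were littermates without Cre, so that floxed ERRα and ERRγ alleles were carried by all 4 groups. ERRKO_CL and WT_CL mice received CL316,243, which activates the β3-adrenergic receptor, by intraperitoneal injection of 1 mg/kg each day for 10 days at Zeitgeber time 4. ERRKO_PBS and WT_PBS mice received PBS in its place, and the fat was collected 24 h after the final injection. Each group had 3 libraries. Nothing in the labels states that these came from separate animals, so the spread behind each p-value is that between libraries and may be technical.

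Adipokines are hormones and binding proteins by which fat tissue acts on other organs. Leptin reports fat stores to the brain and adiponectin acts on liver and muscle. Adipsin is the protease that starts the alternative complement pathway by cutting factor B, and chemerin is a chemoattractant and adipocyte hormone read by the receptor Cmklr1. Retinol-binding protein 4 carries vitamin A in blood, angiotensinogen is the precursor of angiotensin, Ccdc80 is a secreted matrix-associated protein, and activin B signals through receptors that include Acvr1c. Resistin is made by fat cells in mice. Leptin and resistin transcripts are typical of white fat, and in mouse brown fat leptin is usually low and falls with adrenergic stimulation.

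Levels are given as scaled RPKM, that is, deposited RPKM (reads scaled to gene length and to library size) divided by a library factor so that the typical gene is level across libraries. Differences are log2 of scaled RPKM plus 0.5, with the standard error and a limma p-value adjusted by the Benjamini-Hochberg method over all tested genes, and a gene was called when that p was under 0.05. Where libraries of compared groups are said not to overlap, the share of all tested genes that did the same was not counted. Before scaling, the typical gene was higher in ERRKO libraries by 0.53 (log2) under PBS and by 0.63 under CL316,243, and the agonist shifted it by -0.26 in WT and by -0.16 in ERRKO. Reads recovered per library numbered 12468001 to 12954186 in ERRKO_CL, 12822176 to 13263567 in ERRKO_PBS, 8979123 to 9559239 in WT_CL and 8478310 to 9727167 in WT_PBS. Esrra, the gene of ERRα, averaged 7.93 ± 1.08 in ERRKO_CL, 7.63 ± 2.05 in ERRKO_PBS, 79.3 ± 3.82 in WT_CL and 43.7 ± 2.86 in WT_PBS (SD, n = 3 each). Esrrg, the gene of ERRγ, averaged 7.03 ± 0.951, 3.54 ± 1.21, 6.92 ± 1.26 and 6.89 ± 2.15 in the same order, so only Esrra separated the genotypes in every library. The Esrrg difference between genotypes was -0.87 ± 0.25 under PBS (adjusted p = 0.0189) and 0.03 ± 0.25 under CL316,243 (adjusted p = 0.944). Its agonist change in ERRKO was 0.94 ± 0.25 (adjusted p = 0.0365). Whether reads of deleted alleles were still counted was not tested. Ucp1, the uncoupling protein that defines brown fat, averaged 36.7 ± 15.5 in ERRKO_CL, 4.54 ± 1.64 in ERRKO_PBS, 2354 ± 571 in WT_CL and 447 ± 116 in WT_PBS. Cidea, also typical of brown fat and bound to lipid droplets, averaged 364 ± 56.4 in ERRKO_CL, 123 ± 45.8 in ERRKO_PBS, 1682 ± 70.6 in WT_CL and 1175 ± 274 in WT_PBS. Of 8 brown adipocyte markers 5 were lower and none higher in ERRKO_PBS than in WT_PBS. Prdm16 (0.02), Ebf2 (0.07) and Elovl3 (-0.03) were not called there. Elovl3 rested on very few reads in the PBS libraries, so its value cannot show whether the genotypes differed. In ERRKO_CL 7 of the 8 were lower and none higher than in WT_CL. With deposited scaling 5 were lower and 1 higher under PBS, and 5 lower and none higher under CL316,243. Skeletal muscle transcripts varied within every group: the summed level of 11 muscle markers ran between 184 and 1436 in ERRKO_CL, 95.4 and 2691 in ERRKO_PBS, 16.4 and 339 in WT_CL and 10.8 and 267 in WT_PBS, with the creatine kinase gene Ckm at up to 390 (ERRKO_PBS replicate 3). The median difference of the 11 muscle markers was 3.71 for ERRKO_PBS against WT_PBS and 3.19 for ERRKO_CL against WT_CL. None of them was called between genotypes, while 9 and 6 were called higher in ERRKO on the deposited scale under PBS and CL316,243. Without replicate 3 of both ERRKO groups, the adipokines called were 6 higher in ERRKO_PBS than in WT_PBS and 7 higher in ERRKO_CL than in WT_CL, with none lower, Cfd (adjusted p = 0.0701) and Rbp4 (adjusted p = 0.0647) being the calls lost. Mesothelial genes summed to at most 1.12 and lymphocyte genes to at most 11.0 in any library. In bulk tissue, fewer cells of a type and less RNA per cell cannot be told apart.

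RefSeq promoter windows on GRCm38.p6, from 250 bases before to 50 after the start site, were found for 7 of the 9 genes. They are shown for Lep and Rbp4, the promoters with the C/EBP-type letters TTNNGCAA, and for Retn and Inhbb, the only ones of the 9 genes whose levels did not overlap between the genotypes. They are Lep (chr6:29059971-29060270, plus strand), Rbp4 (chr19:38124762-38125061, minus strand, the second of its 2 RefSeq start sites), Retn (chr8:3655520-3655819, plus strand) and Inhbb (chr1:119422199-119422498, minus strand), each written 5′ to 3′ on the gene's own strand. Capitals mark matches, which are TTNNGCAA in Lep and Rbp4 and also the TATA letters TATAAA in Rbp4.
Lep: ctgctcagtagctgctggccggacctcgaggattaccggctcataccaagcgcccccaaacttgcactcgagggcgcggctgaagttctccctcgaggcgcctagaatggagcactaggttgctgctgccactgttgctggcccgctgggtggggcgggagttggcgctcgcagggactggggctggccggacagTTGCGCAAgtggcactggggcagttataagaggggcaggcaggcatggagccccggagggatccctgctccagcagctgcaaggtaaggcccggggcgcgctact
Rbp4: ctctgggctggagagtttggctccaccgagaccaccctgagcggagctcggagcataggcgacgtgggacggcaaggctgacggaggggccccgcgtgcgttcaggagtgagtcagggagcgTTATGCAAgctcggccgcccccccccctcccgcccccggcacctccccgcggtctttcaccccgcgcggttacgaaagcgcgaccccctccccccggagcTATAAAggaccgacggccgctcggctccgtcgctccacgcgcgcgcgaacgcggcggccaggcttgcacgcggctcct
Retn: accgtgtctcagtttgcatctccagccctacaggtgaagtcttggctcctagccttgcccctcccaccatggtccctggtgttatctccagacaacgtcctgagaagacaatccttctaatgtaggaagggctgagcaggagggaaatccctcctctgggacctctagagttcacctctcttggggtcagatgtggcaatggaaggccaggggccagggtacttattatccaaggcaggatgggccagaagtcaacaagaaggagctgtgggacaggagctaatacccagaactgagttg
Inhbb: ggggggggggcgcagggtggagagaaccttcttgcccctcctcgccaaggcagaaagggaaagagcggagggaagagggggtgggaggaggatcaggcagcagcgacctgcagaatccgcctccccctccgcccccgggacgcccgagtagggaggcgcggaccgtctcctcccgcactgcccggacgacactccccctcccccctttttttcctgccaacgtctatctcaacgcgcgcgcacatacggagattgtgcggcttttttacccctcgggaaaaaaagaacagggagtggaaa
The match in Lep begins 55 bases before the start site and reads the same on both strands, and the matches in Rbp4 begin 128 and 28 bases before it. Both strands were searched. TTNNGCAA occurred in 10.8% of 32851 mouse promoter windows and TATAAA in 13.6%, and among the 7 genes the TATA letters were also found in Agt, 30 bases before its start. The ERR core letters AAGGTCA occurred in 4.72% of windows and in none of the 8 windows of these 7 genes. This says only that these letters are not in these windows.

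Every group held the same leading pair. Cfd and Adipoq were the most abundant of the 9 genes in each of the 4 groups, as a level per gene length. In ERRKO_CL the means ran down through Cfd (5861), Adipoq (1728), Rarres2 (317), Retn (266), Rbp4 (172), Ccdc80 (81.9), Lep (73.5), Inhbb (10.7) and Agt (1.51), with overlapping libraries between Rarres2 and Retn and between Ccdc80 and Lep. In ERRKO_PBS the order was Cfd (3471), Adipoq (1394), Rarres2 (494), Ccdc80 (209), Retn (134), Lep (121), Rbp4 (78.2), Inhbb (10.3) and Agt (1.54), with overlap between Retn and Lep only. The order in WT_CL was Cfd (879), Adipoq (756), Rbp4 (82.2), Rarres2 (48.9), Lep (21.1), Retn (20.2), Ccdc80 (10.7), Inhbb (0.618) and Agt (0.571). Cfd overlapped Adipoq there, Lep overlapped Retn, and Inhbb overlapped Agt. In WT_PBS it was Cfd (1700.3), Adipoq (986), Rarres2 (230.2), Lep (62.4), Ccdc80 (36.1), Retn (18.3), Rbp4 (13.96), Inhbb (1.69) and Agt (0.790), and Cfd overlapped Adipoq, Ccdc80 overlapped Retn and Retn overlapped Rbp4. Ranked within each library, which needs no scaling between libraries, Cfd was transcript number 3 of 24452 in all 6 ERRKO libraries, against 46 to 85 in WT_CL and 4 to 21 in WT_PBS. Adipoq ranked 6 to 7 in ERRKO_CL and 6 to 10 in ERRKO_PBS, against 73 to 88 in WT_CL and 23 to 35 in WT_PBS.

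**Figure D1:**
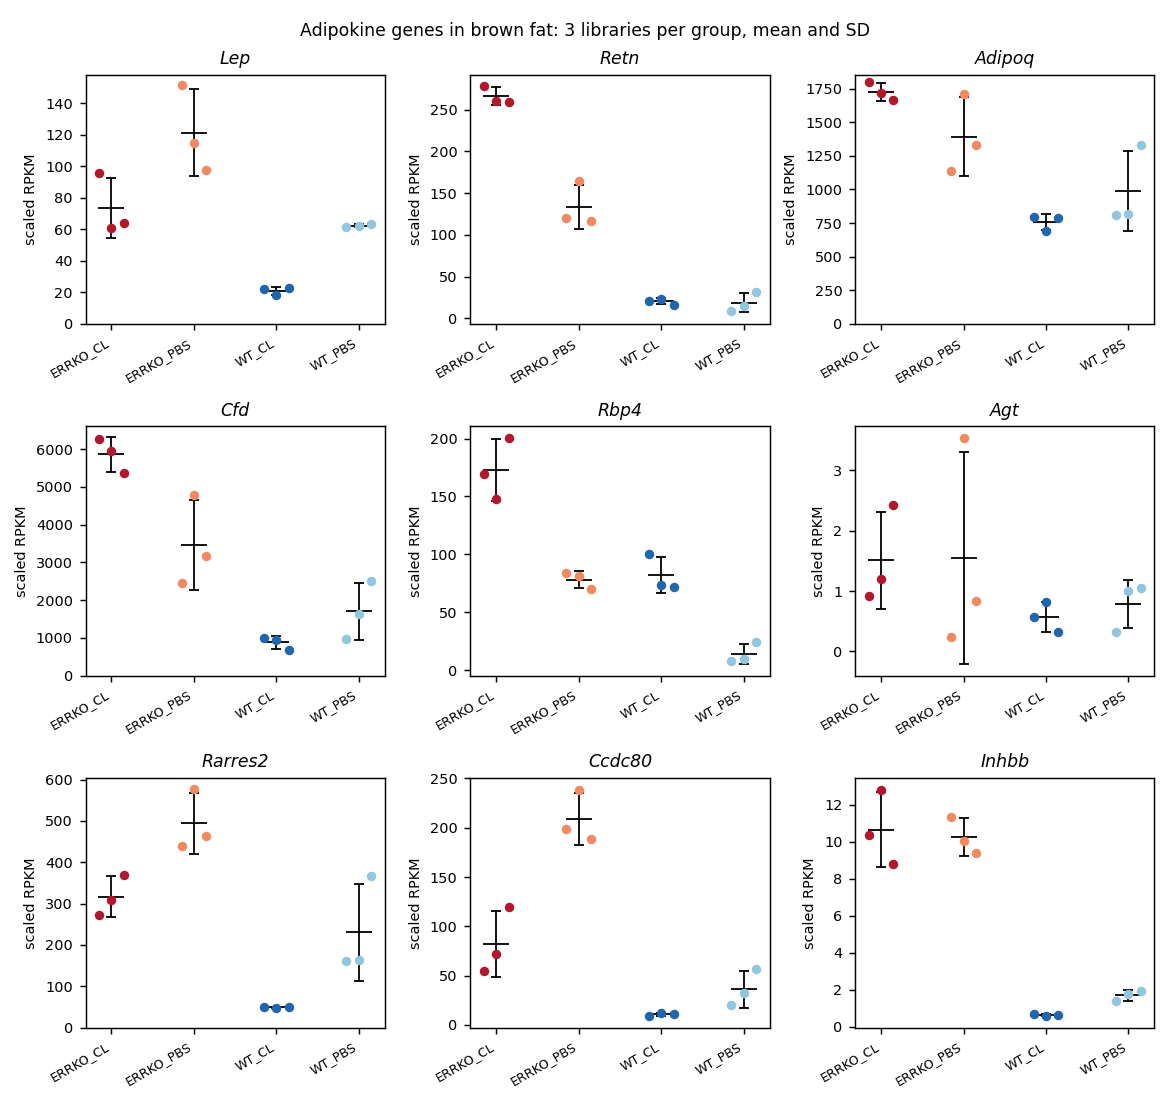
Scaled RPKM of the 9 adipokine genes in the 4 groups, 1 panel per gene, with 3 libraries per group as points and the mean and SD as lines. Retn and Inhbb are higher in all 6 ERRKO libraries than in all 6 WT libraries, while Agt is at most 3.54 in any library.

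The genotypes were compared first without agonist, to ask how the adipokine transcripts differed with the ERRαγAd-/- genotype. In ERRKO_PBS 7 of the 9 genes were higher than in WT_PBS and none was lower, where 15.8% of all tested genes were called higher, 18.4% lower and 34.2% in either direction. On the deposited scale 8 of the 9 were higher and none lower, beside 8115 of all tested genes higher and 762 lower. The median difference of the 9 was 1.20, against 0.01 over all tested genes. Retn, Ccdc80, Rbp4 and Inhbb differed most, with group means 5.60 to 7.30 times as high in ERRKO_PBS. Adipoq and Agt did not pass.

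The 2 hormones that mark white fat most clearly differed in size of change. Resistin (Retn, chromosome 8, 3655770 to 3660110) was at 121, 164 and 116 in ERRKO_PBS, against 8.99, 14.9 and 31.0 in WT_PBS. The lowest ERRKO_PBS library was well above the highest WT_PBS library, and the difference was 2.99 ± 0.32 (adjusted p = 2.14e-05). Leptin (Lep, chromosome 6, 29060220 to 29073877) was at 152, 115 and 97.4 in ERRKO_PBS, against 61.6, 62.1 and 63.5 in WT_PBS. The WT_PBS libraries were nearly equal and all lay below ERRKO_PBS, with a difference of 0.93 ± 0.18 (adjusted p = 0.00192).

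Genes of secreted carriers and growth factors followed. Inhbb (chromosome 1, 119415465 to 119422248), which encodes the subunit of activin B, was at 11.3, 10.0 and 9.37 in ERRKO_PBS, against 1.37, 1.77 and 1.91 in WT_PBS. Its groups were far apart beside their spread, at 2.303 ± 0.14 (adjusted p = 1.90e-07), the smallest p of the 9. Rbp4 (chromosome 19, 38116629 to 38125281), the vitamin A carrier, was at 83.9, 81.1 and 69.8 in ERRKO_PBS, against 7.72, 10.1 and 24.1 in WT_PBS (2.61 ± 0.31, adjusted p = 4.73e-05). Ccdc80 (chromosome 16, 45093402 to 45128077) was at 198, 239 and 189 in ERRKO_PBS, against 19.9, 32.2 and 56.3 in WT_PBS (2.63 ± 0.33, adjusted p = 7.24e-05). For both genes the groups did not overlap, and replicate 3 was the highest of WT_PBS.

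Chemerin, adipsin and adiponectin differed less under PBS. Rarres2 (chromosome 6, 48569696 to 48572789) was at 440.4, 577 and 464 in ERRKO_PBS, against 162, 163 and 366 in WT_PBS (1.20 ± 0.26, adjusted p = 0.00355). Of its annotated exon bases 33.6% overlap Lrrc61, and whether counting used strand is not given in the sources used here. Its level may therefore hold reads of that gene. Cfd (chromosome 10, 79890853 to 79892655) was at 2446, 4784 and 3184 in ERRKO_PBS, against 977, 1625 and 2498 in WT_PBS. These groups overlapped, and the call at 1.08 ± 0.33 (adjusted p = 0.0252) was lost without ERRKO_PBS replicate 2 (0.82, adjusted p = 0.0923), ERRKO_PBS replicate 3 (adjusted p = 0.0534), WT_PBS replicate 1 (0.73, adjusted p = 0.1002) or WT_PBS replicate 2 (adjusted p = 0.0549), and with no filter (adjusted p = 0.106). With only ERRKO_PBS and WT_PBS fitted the Cfd call was also lost (adjusted p = 0.0977). Adipoq (chromosome 16, 23146536 to 23158028) was at 1135, 1714 and 1333 in ERRKO_PBS, against 813, 814 and 1329 in WT_PBS. Its groups overlapped through WT_PBS replicate 3, and the difference of 0.52 ± 0.21 did not pass (adjusted p = 0.0746). Leaving out WT_PBS replicate 3 gave a call (0.76, adjusted p = 0.00429), as did leaving out ERRKO_PBS replicate 1 (0.65, adjusted p = 0.0483). Deposited scaling (1.11, adjusted p = 0.000169) and quantile normalization (1.00, adjusted p = 1.31e-05) also gave a call. The promoter of this gene drives the Cre transgene of the ERRKO mice, and whether transgene reads fell on Adipoq was not tested.

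WT_PBS replicate 3 was the highest of its group in all 9 genes, by little for Lep, Inhbb and Agt. The summed level of 8 pan-adipocyte markers was 15747 in that library, against 11008 and 11331 in WT_PBS replicates 1 and 2. In ERRKO_PBS this sum ran between 11897 and 15667, and 5 of the 8 markers were called higher and 1 lower than in WT_PBS (7 higher and none lower with deposited scaling). Of 3 tested lymphocyte markers 2 were higher in ERRKO_PBS (Cd3e by 0.92 and Cd3g by 1.10), on either scale. The remaining one, Cd79a, went the other way at -0.95 and was not called (adjusted p = 0.0776). Sums of the 7 listed lymphocyte markers overlapped, at 4.05 to 7.30 in ERRKO_PBS and 1.88 to 11.0 in WT_PBS. Of 6 endothelial markers 2 were lower (Emcn at -0.57 and Tek at -0.44) and none with deposited scaling, with sums of 148 to 150.4 in ERRKO_PBS and 153 to 240.1 in WT_PBS. The part of these cell types in the differences was not tested. Of 9 fibroblast and preadipocyte markers and 7 macrophage markers none was called between ERRKO_PBS and WT_PBS, while on the deposited scale 9 and 3 were called higher in ERRKO_PBS.

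Angiotensinogen could not be resolved. Agt (chromosome 8, 124556534 to 124569706) was between 0.912 and 2.42 in ERRKO_CL, 0.243 and 3.54 in ERRKO_PBS, 0.322 and 0.815 in WT_CL, and 0.329 and 1.05 in WT_PBS. These levels rest on 7 to 134 reads a library, and no comparison of the 4 groups passed. The difference was 0.36 ± 0.51 under PBS (adjusted p = 0.62) and 0.86 ± 0.51 under CL316,243 (adjusted p = 0.199), where the ERRKO_CL libraries all lay above the WT_CL libraries. The value under CL316,243 passed with deposited scaling (1.26, adjusted p = 0.0425) and with only those groups fitted (0.86, adjusted p = 0.0447).

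**Figure D2:**
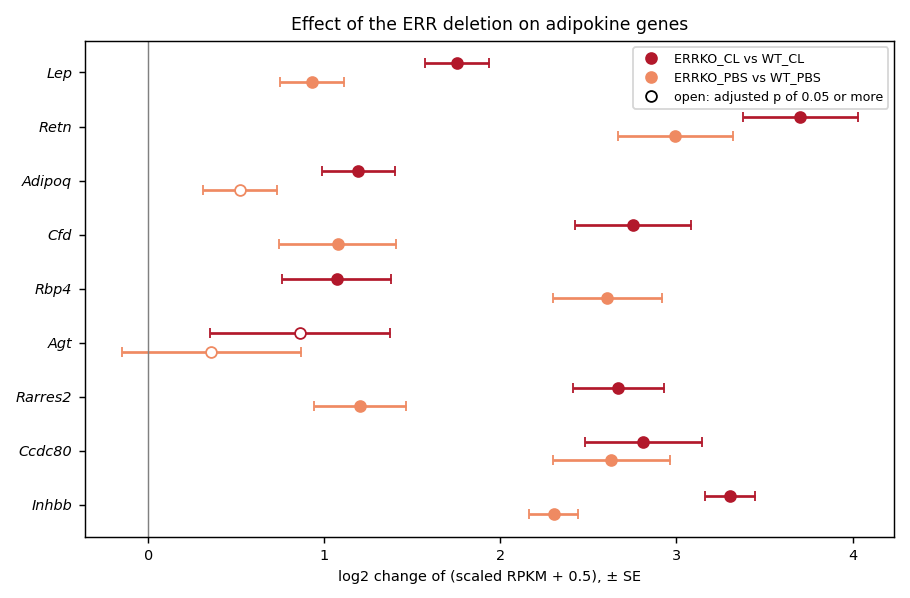
Log2 difference between genotypes with its standard error for each of the 9 genes, ERRKO_CL against WT_CL and ERRKO_PBS against WT_PBS. All 9 values are above 0 under either treatment, and the difference under CL316,243 is the larger one in 8 genes, Rbp4 being the exception.

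Under the agonist the same question was asked of ERRKO_CL against WT_CL. In ERRKO_CL 8 of 9 genes were higher and none was lower, where 19.8% of all tested genes were called higher, 21.6% lower and 41.5% in either direction. On the deposited scale all 9 were higher, beside 8640 of all tested genes higher and 811 lower. On the median-ratio scale the median difference of the 9 was 2.67, against 0.01 over all tested genes. Every ERRKO_CL library lay above every WT_CL library for all 9 genes, but how many of all tested genes separated in this way was not counted. Of the fibroblast and preadipocyte markers 4 were higher and 1 was lower in ERRKO_CL (7 higher with deposited scaling), with sums of 438 to 603 in ERRKO_CL and 317 to 361 in WT_CL. Of 7 macrophage markers 2 were higher (6 with deposited scaling), with sums of 107 to 154 in ERRKO_CL and 102 to 131 in WT_CL. Of 8 pan-adipocyte markers 4 were higher and none lower (8 higher with deposited scaling), with sums of 20274 to 20375 in ERRKO_CL and 17285 to 18563 in WT_CL. Of 6 endothelial markers 1 was lower (3 higher with deposited scaling), with sums of 144 to 161 in ERRKO_CL and 168 to 196 in WT_CL. The part of any of these cell types in the differences was not tested.

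Retn was at 279, 260.2 and 259 in ERRKO_CL, against 21.0, 23.2 and 16.3 in WT_CL. The group means stood 13.2 times apart and the difference was 3.70 ± 0.32 (adjusted p = 2.48e-06), the largest of the 9 on this scale. Inhbb was at 10.4, 12.8 and 8.79 in ERRKO_CL, against 0.670, 0.568 and 0.616 in WT_CL (3.30 ± 0.14, adjusted p = 9.85e-09). Its means stood 17.2 times apart, more than the log2 value shows because 0.5 is added to low levels. Cfd was at 6271, 5953 and 5359 in ERRKO_CL, against 1009.9, 937 and 689.6 in WT_CL (2.75 ± 0.33, adjusted p = 3.66e-05). The overlap seen under PBS was gone, and the lowest ERRKO_CL library lay above the highest WT_CL library.

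Rarres2 and Ccdc80 separated as widely as Cfd. Rarres2 was at 271, 309.8 and 369 in ERRKO_CL, against 49.96, 48.1 and 48.7 in WT_CL (2.67 ± 0.26, adjusted p = 6.13e-06). Ccdc80 was at 54.9, 71.6 and 119 in ERRKO_CL, against 8.94, 12.1 and 11.1 in WT_CL (2.81 ± 0.33, adjusted p = 3.08e-05). Both genes were low and tightly grouped in WT_CL. Lep was at 95.6, 61.1 and 63.7 in ERRKO_CL, against 22.3, 18.2 and 22.8 in WT_CL (1.75 ± 0.18, adjusted p = 1.09e-05). Adipoq was at 1800.2, 1717 and 1668 in ERRKO_CL, against 793, 689.9 and 786 in WT_CL (1.19 ± 0.21, adjusted p = 0.000682). Adiponectin thus passed under CL316,243 and not under PBS on the median-ratio scale, and the difference between these effects did not pass its own test there. With quantile normalization that difference passed (0.82, adjusted p = 0.0104). Rbp4 was at 169, 148 and 201 in ERRKO_CL, against 100.4, 73.8 and 72.2 in WT_CL (1.07 ± 0.31, adjusted p = 0.0153). The Rbp4 call was lost without ERRKO_CL replicate 3 (0.96, adjusted p = 0.0563), WT_CL replicate 2 (1.00, adjusted p = 0.051) or WT_CL replicate 3 (0.98, adjusted p = 0.0541).

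Over both treatments, the 6 ERRKO and 6 WT libraries did not overlap for Retn, at 116 to 279 in ERRKO and 8.99 to 31.0 in WT, and for Inhbb, at 8.79 to 12.8 in ERRKO and 0.568 to 1.91 in WT. The other 7 genes overlapped between the genotypes. How many of all tested genes separated all ERRKO from all WT libraries was not counted. For Lep the overlap came from ERRKO_CL replicate 2, whose level of 61.1 lay below the WT_PBS libraries at 61.6 to 63.5.

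The response of WT tissue to the agonist was mostly a fall. In WT_CL 4 of the 9 genes were lower than in WT_PBS, where 12.6% of all tested genes were called lower, and 1 was higher, where 17.9% were called higher and 30.5% in either direction. With deposited scaling 6 were lower and 1 higher, beside 4671 of all tested genes lower and 882 higher. The median change was -0.87, against 0.01 over all tested genes. Rarres2 fell most, to 48.9 ± 0.948 in WT_CL against 230.2 ± 118 in WT_PBS (-2.11 ± 0.26, adjusted p = 0.00014). Ccdc80 fell to 10.7 ± 1.61 in WT_CL against 36.1 ± 18.5 in WT_PBS (-1.59 ± 0.33, adjusted p = 0.00384). Lep fell to 21.1 ± 2.53 in WT_CL against 62.4 ± 0.968 in WT_PBS (-1.55 ± 0.18, adjusted p = 0.000106). Inhbb fell to 0.618 ± 0.0515 in WT_CL against 1.69 ± 0.278 in WT_PBS (-0.96 ± 0.14, adjusted p = 0.000464). For these 4 genes all WT_CL libraries were below all WT_PBS libraries. The macrophage markers moved alongside: 6 of 7 fell, with sums of 102 to 131 in WT_CL and 178 to 379 in WT_PBS, and their part in these changes was not tested.

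Rbp4 went the other way, to 82.2 ± 15.8 in WT_CL against 13.96 ± 8.83 in WT_PBS (2.66 ± 0.31, adjusted p = 0.0001), with no overlap. Retn did not pass (0.30 ± 0.32, adjusted p = 0.529), its value turned to -0.02 on the deposited scale, and without WT_PBS replicate 3 it passed (0.76, adjusted p = 0.0197). Adipoq was -0.34 ± 0.21 (adjusted p = 0.24), although every WT_CL library lay below every WT_PBS library, and it passed on the deposited scale (-0.67, adjusted p = 0.0105). Cfd was -0.87 ± 0.33 (adjusted p = 0.0674), with overlapping groups. Cfd passed with deposited scaling (-1.19, adjusted p = 0.00761), by edgeR on recovered reads (-0.95, adjusted p = 0.036) and without WT_PBS replicate 1 (-1.22, adjusted p = 0.0159). Quantile normalization also gave a Cfd call (-1.52, adjusted p = 0.000845).

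The agonist response was next read in ERRKO tissue. In ERRKO_CL 2 of the 9 genes were lower than in ERRKO_PBS, where 3.62% of all tested genes were called lower, and 1 was higher, where 6.68% were called higher and 10.3% in either direction. With deposited scaling 3 were lower and 1 higher, beside 1672 of all tested genes lower and 396 higher. The median change was 0.26, against 0.02 over all tested genes. Lep fell to 73.5 ± 19.2 in ERRKO_CL against 121 ± 27.7 in ERRKO_PBS (-0.73 ± 0.18, adjusted p = 0.0276), and Ccdc80 to 81.9 ± 33.4 in ERRKO_CL against 209 ± 26.5 in ERRKO_PBS (-1.41 ± 0.33, adjusted p = 0.0208). Rbp4 rose to 172 ± 26.7 in ERRKO_CL against 78.2 ± 7.43 in ERRKO_PBS (1.13 ± 0.31, adjusted p = 0.0393). The libraries of ERRKO_CL and ERRKO_PBS did not overlap for any of these 3 genes.

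All 3 calls were lost when single libraries were left out. For Lep it was lost without ERRKO_CL replicate 2 (adjusted p = 0.107) or 3 (adjusted p = 0.0962), or ERRKO_PBS replicate 1 (adjusted p = 0.108) or 2 (adjusted p = 0.0534). The Ccdc80 call was lost without ERRKO_CL replicate 1 (adjusted p = 0.077) or 2 (adjusted p = 0.0713), or ERRKO_PBS replicate 1 (adjusted p = 0.0633) or 2 (adjusted p = 0.0595). The Rbp4 call was lost without any single ERRKO library (adjusted p = 0.0724 to 0.119) and without WT_CL replicate 2 (adjusted p = 0.0517) or 3 (adjusted p = 0.0558). With no filter on low values the Lep (adjusted p = 0.0564) and Rbp4 (adjusted p = 0.0811) calls were also lost. The Lep call was lost with only the ERRKO groups fitted (adjusted p = 0.0826), and the Rbp4 call with the replicate block (adjusted p = 0.0501). Retn, at 279, 260.2 and 259 in ERRKO_CL against 121, 164 and 116 in ERRKO_PBS, did not pass at 1.01 ± 0.32 (adjusted p = 0.0711) although the groups did not overlap. It passed without WT_PBS replicate 1 (adjusted p = 0.022) or 3 (adjusted p = 0.00763), libraries that belong to neither group, and with only those groups fitted (adjusted p = 0.01). Cfd was 0.81 ± 0.33 (adjusted p = 0.15), Adipoq 0.33 ± 0.21 (adjusted p = 0.367), Rarres2 -0.64 ± 0.26 (adjusted p = 0.145) and Inhbb 0.04 ± 0.14 (adjusted p = 0.895). The direction for Inhbb turned on the deposited scale (-0.15). Rarres2 passed there (-0.84, adjusted p = 0.0302) and without WT_PBS replicate 3 (-0.65, adjusted p = 0.00791).

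**Figure D3:**
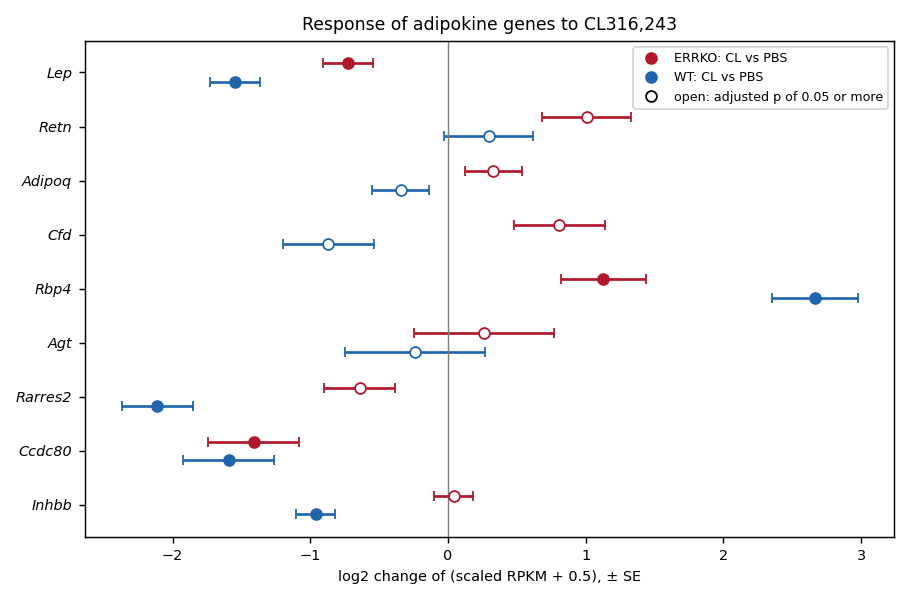
Log2 change with CL316,243 and its standard error for each of the 9 genes, ERRKO_CL against ERRKO_PBS beside WT_CL against WT_PBS. Inhbb is at 0.04 in ERRKO and -0.96 in WT, and Rarres2 at -0.64 in ERRKO and -2.11 in WT.

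The interaction, the agonist change in ERRKO minus that in WT, tested whether these responses differed. It was called for 2 of the 9 genes, both positive, where 1.88% of all tested genes were called positive, 2.02% negative and 3.89% in either direction. With deposited scaling 3 were positive and none negative, beside 475 of all tested genes positive and 154 negative. Inhbb had an interaction of 1.00 ± 0.20 (adjusted p = 0.0195), lost without WT_PBS replicate 2 (0.97, adjusted p = 0.0519). Rarres2 had 1.47 ± 0.37 (adjusted p = 0.0474), a call lost without any single ERRKO or WT_CL library (adjusted p = 0.0527 to 0.105) and with no filter on low values (adjusted p = 0.0954). Cfd at 1.68 ± 0.47 (adjusted p = 0.0698) and Rbp4 at -1.54 ± 0.44 (adjusted p = 0.0752) did not pass. The Cfd value passed without WT_PBS replicate 1 (2.02, adjusted p = 0.0287) and with deposited scaling (1.80, adjusted p = 0.033), and the Rbp4 value without WT_PBS replicate 3 (-2.01, adjusted p = 0.0015). Lep (0.82 ± 0.26, adjusted p = 0.103), Retn (0.71 ± 0.46, adjusted p = 0.457), Adipoq (0.67 ± 0.30, adjusted p = 0.244) and Ccdc80 (0.18 ± 0.47, adjusted p = 0.89) did not pass. With quantile normalization Adipoq (0.82, adjusted p = 0.0104) and Cfd (1.52, adjusted p = 0.0311) passed.

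As a percent of the Adipoq level of the same library, which needs no scaling between libraries, the mix of adipokine transcripts differed between groups. Retn stood at 15.4 ± 0.210% of Adipoq in ERRKO_CL, 9.65 ± 0.954% in ERRKO_PBS, 2.69 ± 0.645% in WT_CL and 1.76 ± 0.618% in WT_PBS (SD, n = 3 each). Rarres2 stood at 18.4 ± 3.54% in ERRKO_CL, 35.8 ± 2.69% in ERRKO_PBS, 6.49 ± 0.422% in WT_CL and 22.5 ± 4.39% in WT_PBS. Rbp4 stood at 10.0 ± 1.80% in ERRKO_CL, 5.78 ± 1.41% in ERRKO_PBS, 10.9 ± 1.74% in WT_CL and 1.33 ± 0.438% in WT_PBS, so that the agonist groups of the genotypes overlapped. Lep stood at 4.23 ± 0.946% in ERRKO_CL, 9.12 ± 3.68% in ERRKO_PBS, 2.79 ± 0.135% in WT_CL and 6.66 ± 1.63% in WT_PBS. Relative to Adipoq, the Lep libraries of ERRKO_PBS (6.70 to 13.4%) and WT_PBS (4.78 to 7.63%) overlapped, while those of ERRKO_CL (3.56 to 5.31%) lay above those of WT_CL (2.64 to 2.91%). These percentages are descriptions and were not tested.

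Receptors and partners of the 9 proteins were read from lists of related genes, whose counts are given on the median-ratio scale with the genotype counts of the deposited scale beside them. Across all tested genes 15.8% were called higher and 18.4% lower in ERRKO_PBS than in WT_PBS, and 19.8% and 21.6% in ERRKO_CL than in WT_CL. In WT the agonist raised 17.9% and lowered 12.6%. With deposited scaling 8115 genes were higher and 762 lower under PBS, and 8640 and 811 under CL316,243. Several list counts lie near these shares, and a count alone is not read as a result about its list. Of 8 adipokine receptors 5 were tested, and the chemerin receptor Cmklr1 was the only one higher in ERRKO, with 2 lower, under either treatment. Deposited scaling gave 2 higher and none lower under PBS and 3 higher and none lower under CL316,243. Cmklr1 averaged 8.33 ± 0.961 in ERRKO_CL and 1.99 ± 0.265 in WT_CL (1.82 ± 0.21, adjusted p = 2.35e-05), and 19.9 ± 7.12 in ERRKO_PBS and 2.76 ± 0.618 in WT_PBS (2.60 ± 0.21, adjusted p = 1.72e-06). The adiponectin receptor Adipor1 had a difference of -0.58 ± 0.07 under PBS (adjusted p = 8.29e-05), but 0.0038 with deposited scaling, so its direction depended on the scale. The adiponectin-binding cadherin Cdh13 stood at -0.42 ± 0.11 (adjusted p = 0.0118), and at 0.14 with deposited scaling. The leptin receptor Lepr, Gpr1 and Stra6 did not reach the filter.

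Adipsin acts on factor B, and the alternative complement list was followed for that reason. Of 11 genes 8 were tested: 2 were higher and 1 lower in ERRKO_PBS than in WT_PBS, and 3 were higher and none lower in ERRKO_CL than in WT_CL. Deposited scaling gave 6 and 7 higher, and none lower. Cfb, which encodes factor B, averaged 61.4 ± 3.73 in ERRKO_CL and 5.17 ± 0.720 in WT_CL (3.46 ± 0.34, adjusted p = 6.71e-06), and 106 ± 25.4 in ERRKO_PBS and 11.5 ± 8.19 in WT_PBS (3.33 ± 0.34, adjusted p = 1.29e-05). C3, the central complement protein, was at 170, 169 and 168 in ERRKO_PBS, against 61.9, 52.9 and 72.9 in WT_PBS (1.44 ± 0.18, adjusted p = 7.91e-05). Under the agonist C3 averaged 130.5 ± 20.8 in ERRKO_CL and 120.5 ± 35.0 in WT_CL, with overlapping libraries. Its interaction was -1.30 ± 0.26 (adjusted p = 0.0199), lost without ERRKO_CL replicate 2 (adjusted p = 0.0538), WT_PBS replicate 2 (adjusted p = 0.0528) or replicate 3 of both ERRKO groups (adjusted p = 0.0785). In WT the agonist lowered 4 of the 8 genes, among them properdin Cfp (-1.09 ± 0.23, adjusted p = 0.00456), and raised C3 (0.91 ± 0.18, adjusted p = 0.0031), while deposited scaling gave 5 lower and 1 higher.

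**Figure D4:**
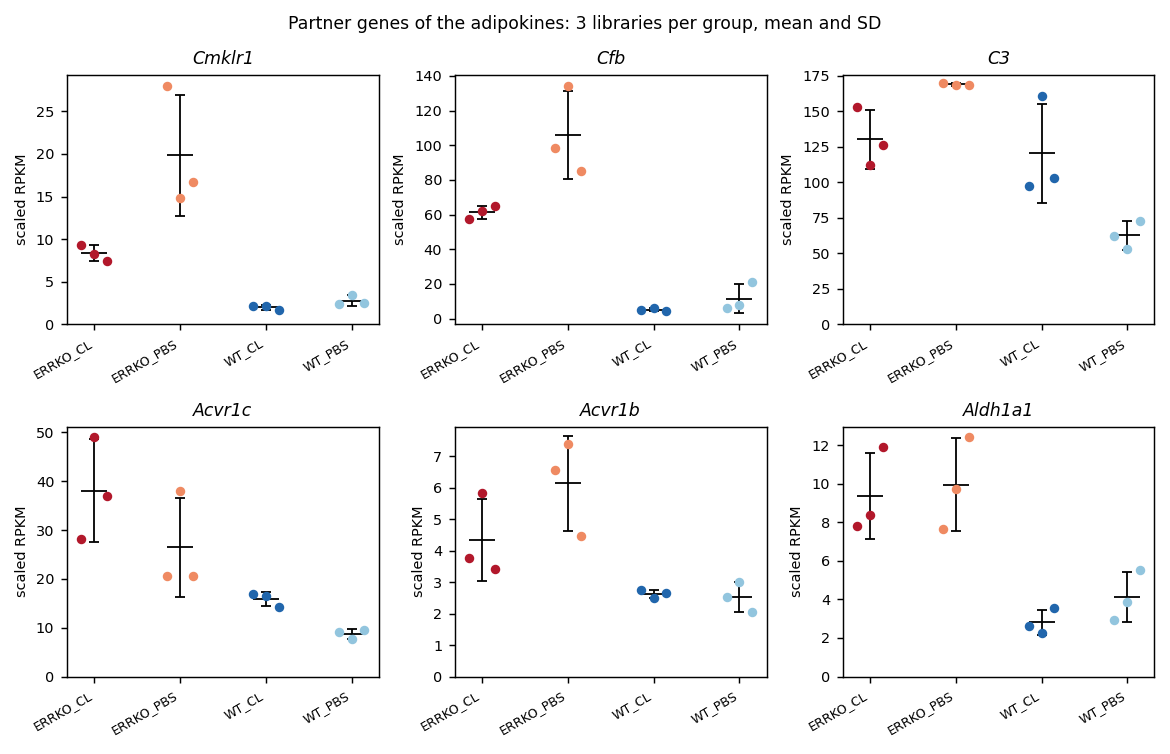
Scaled RPKM of 6 partner genes in the 4 groups, with 3 libraries per group as points and the mean and SD as lines. Cmklr1 and Cfb are higher in every ERRKO library than in every WT library, while C3 overlaps between ERRKO_CL and WT_CL.

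Activin B is read by receptors that include Acvr1c, a type I receptor abundant in fat cells, and Acvr1b. Of 12 activin genes 8 were tested, and 2 were higher and 1 lower in ERRKO_PBS than in WT_PBS (4 higher and none lower with deposited scaling). Among all tested genes 15.8% were called higher and 18.4% lower there. In ERRKO_CL 2 were higher and none lower than in WT_CL (5 higher with deposited scaling). Acvr1c averaged 38.1 ± 10.5 in ERRKO_CL and 15.8 ± 1.38 in WT_CL (1.21 ± 0.23, adjusted p = 0.0013), and 26.4 ± 10.1 in ERRKO_PBS and 8.69 ± 0.968 in WT_PBS (1.496 ± 0.23, adjusted p = 0.000374). Acvr1b was higher by 1.12 ± 0.20 under PBS (adjusted p = 0.00108). The partner subunit gene Inhba and the genes Inha, Inhbc and Inhbe were below the filter, so Inhbb was the only inhibin or activin subunit tested. Of 11 retinoid genes 6 were tested, with 1 higher and 1 lower in ERRKO under either treatment (with deposited scaling, 2 higher under PBS, 4 higher under CL316,243 and none lower). Aldh1a1, which makes retinoic acid, was higher in ERRKO_PBS than in WT_PBS by 1.19 ± 0.24 (adjusted p = 0.00202) and in ERRKO_CL than in WT_CL by 1.57 ± 0.24 (adjusted p = 0.000206). Rdh10, which oxidizes retinol, stood at -0.43 ± 0.10 under PBS (adjusted p = 0.00462) and at 0.13 with deposited scaling. Of 10 renin-angiotensin genes 5 were tested. Under PBS 1 was higher and 1 lower in ERRKO (3 higher and none lower with deposited scaling), and under CL316,243 none was called (4 higher with deposited scaling). Lnpep was higher under PBS (0.80 ± 0.22, adjusted p = 0.0155, lost without ERRKO_PBS replicate 2 at 0.64, adjusted p = 0.0622). The receptor Agtr1a was lower under PBS (-0.52 ± 0.17, adjusted p = 0.0354), at -0.0039 with deposited scaling. Its call was lost without any ERRKO_PBS library or without WT_PBS replicate 1 or 2 (adjusted p = 0.0558 to 0.138), with no filter (adjusted p = 0.0648), with only those groups fitted (adjusted p = 0.0816) and with the replicate block (adjusted p = 0.0577). Renin Ren1 was below the filter.

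Adiponectin is assembled in the endoplasmic reticulum, and 5 genes of its folding and modification were tested. Under PBS 1 was higher and 1 lower in ERRKO (2 and 1 with deposited scaling), and under CL316,243 1 was higher and none lower (5 higher with deposited scaling). Erp44, a chaperone that retains adiponectin, averaged 14.4 ± 0.456 in ERRKO_CL, 13.8 ± 1.31 in ERRKO_PBS, 15.3 ± 0.555 in WT_CL and 24.8 ± 2.163 in WT_PBS. The WT_PBS group stood apart, and the interaction was 0.74 ± 0.12 (adjusted p = 0.00835), lost without replicate 3 of both ERRKO groups (0.69, adjusted p = 0.0529). Plod3, a lysyl hydroxylase, was higher in ERRKO_PBS than in WT_PBS by 0.74 ± 0.11 (adjusted p = 0.000252) and in ERRKO_CL than in WT_CL by 1.22 ± 0.11 (adjusted p = 3.12e-06). Of 7 transcription factors known to control adipokine genes, 5 were higher and none lower in ERRKO_PBS than in WT_PBS, and 7 were higher with deposited scaling, led on the median-ratio scale by Klf15 (0.86 ± 0.14, adjusted p = 0.000615), Srebf1 (1.30 ± 0.22, adjusted p = 0.000697) and Foxo1 (0.63 ± 0.11, adjusted p = 0.000818). In ERRKO_CL 3 of the 7 were higher and 1 lower than in WT_CL, and deposited scaling gave 6 higher and none lower. Pparg, the master regulator of fat cells, averaged 119.8 ± 45.6 in ERRKO_CL, 127 ± 33.3 in ERRKO_PBS, 120.4 ± 11.1 in WT_CL and 118 ± 8.21 in WT_PBS, and its groups overlapped.

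A wider list of other fat-secreted factors, 30 of them tested, held calls in both directions. In ERRKO_PBS 6 were higher and 5 lower than in WT_PBS, near the shares of all tested genes (15.8% higher and 18.4% lower). In ERRKO_CL 13 were higher and 3 lower than in WT_CL, beside 19.8% and 21.6% of all tested genes. In WT the agonist raised 3 and lowered 9, beside 17.9% and 12.6% of all tested genes. With deposited scaling 15 were higher and 1 lower under PBS, 23 higher and 2 lower under CL316,243, and the agonist raised 2 and lowered 19 in WT. Clusterin (Clu), a secreted chaperone, was at 5.42, 5.59 and 5.69 in ERRKO_CL and 13.8, 14.4 and 16.5 in ERRKO_PBS, against 4.32, 4.87 and 4.48 in WT_CL and 58.5, 74.8 and 65.9 in WT_PBS. Its difference under PBS was -2.12 ± 0.10 (adjusted p = 3.26e-08), in the opposite direction to the 7 adipokines called there. Apoe, the lipid carrier apolipoprotein E, averaged 1579 ± 182 in ERRKO_CL and 373 ± 9.92 in WT_CL (2.08 ± 0.17, adjusted p = 1.32e-06). Nampt, an enzyme of NAD synthesis also found outside cells, averaged 38.7 ± 5.33 in ERRKO_CL and 112 ± 13.03 in WT_CL (-1.52 ± 0.13, adjusted p = 2.42e-06). Lipoprotein lipase Lpl was higher in ERRKO_PBS than in WT_PBS by 0.71 ± 0.15 (adjusted p = 0.00267).

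The genes whose pattern over the 12 libraries was most like that of Lep, Retn and Adipoq were sought as the smallest root mean square difference of mean-centred log2 levels. For Lep these were Bid (0.224), Il17re (0.240) and Smoc2 (0.265). For Retn they were Slc25a10 (0.412), Fam83a (0.413) and Ffar2 (0.419). These differences were not divided by each gene's own spread, so their sizes cannot be compared between Lep, Retn and Adipoq. For Adipoq they were Pla2g16 (0.119), Gpx1 (0.149) and Rn45s (0.158), the last a ribosomal RNA precursor. Slc25a10, a mitochondrial dicarboxylate carrier, averaged 56.7 ± 7.83 in ERRKO_CL, 30.1 ± 4.95 in ERRKO_PBS, 7.97 ± 1.403 in WT_CL and 4.63 ± 2.37 in WT_PBS, the same order of groups as Retn. Pla2g16, a phospholipase of fat cells, averaged 243 ± 15.2 in ERRKO_CL, 189 ± 33.1 in ERRKO_PBS, 110 ± 5.55 in WT_CL and 138 ± 54.3 in WT_PBS, the same order as Adipoq. Slc25a10 and Pla2g16 were picked for closeness over these same libraries, so the shared order is not a separate result.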

How the data were processed

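The 12 libraries fell into 4 groups, and group and replicate were read from the labels. Per the submitters' processing notes the tools were bcl2fastq 2.16.0.10, cutadapt, STAR in version 2.3.0 and edgeR, and the builds mm9 and mm10 are named, with no role given. How reads were counted, with which annotation and strand, is not given in the sources used here. This leaves genes with overlaps or close paralogs, such as Retn, uncertain. RPKM values were deposited by the authors for 24452 genes and are relative to gene length and an unstated library total. A second table deposited by the authors, called log CPM, in fact holds a linear signal for 12380 genes. In it 100% of values were whole multiples of a step per library (tolerance 0.01), from which reads were recovered. Its genes reach at least 40 reads in some library, and 9 stray cells were left out.

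RPKM was divided by median-of-ratios factors, and log2 of the result plus 0.5 entered limma 3.58.1 (R 4.3.3, trended empirical Bayes). All 12 libraries were fitted as 4 group means with 8 residual degrees of freedom, over 12249 genes whose mean RPKM was at least 0.5. Within each of the 5 comparisons p-values were adjusted after Benjamini and Hochberg, and the threshold was 0.05. As a count test, quasi-likelihood in edgeR 4.0.16 on the recovered reads called 4305 genes between ERRKO_PBS and WT_PBS and 5083 between ERRKO_CL and WT_CL. It called 3633 between WT_CL and WT_PBS, 1218 between ERRKO_CL and ERRKO_PBS, and 412 in the interaction. Low levels rest on few reads. The fit was also run on simulated data in which few genes changed, so that run does not test the scaling where many genes differ.

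The 9 genes, all lists and the median-ratio scale were chosen with earlier results of these data known. Also named were Esrra, Esrrg, Ucp1, Cidea and Ckm and, from each list, up to 3 genes with the smallest p in each genotype comparison and in the WT agonist comparison, any with a called interaction, and the 3 genes most like Lep, Retn or Adipoq. Pparg, Elovl3, Prdm16, Ebf2, Cd3e, Cd3g, Cd79a, Emcn, Tek and list members below the filter were named after their values were seen. C1qtnf12 was not matched. Alternatives were deposited scaling, quantile normalization, pseudocounts of 0.1 and 1, no filter, a filter at a mean RPKM of 2, edgeR with TMM or RLE factors, fits of only the groups compared, replicate number as a block, and omission of each library. Omission of replicate 3 of both ERRKO groups, the highest in muscle transcripts, was added after seeing the data. Coordinates come from GENCODE M21 on GRCm38 (1-based), not from the files.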

Additional observations from a re-analysis of the deposited data

Results flagged for a closer look

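In the interaction 477 of 12249 tested genes (3.89%) were called. The count of list genes below is not read as a result about the lists. The agonist response differed between genotypes by the interaction test (agonist change in ERRKO minus that in WT, log2, limma adjusted p under 0.05) for 9 genes of the lists followed here. Among the adipokines these were Inhbb at 1.00 and Rarres2 at 1.47. Among related genes they were Clu at 2.38, Gpx3 at 2.02, Apoe at 1.74 and Erp44 at 0.74, with the less negative or more positive change in ERRKO. The sign was the opposite for C3 at -1.30 and Nampt at -1.15, and for the brown-fat marker Elovl3 at -3.31. Elovl3, a fatty acid elongase, rested on 0 to 4 reads in the PBS libraries, and by edgeR on recovered reads its interaction was not called (adjusted p = 0.235 with TMM and 0.243 with RLE factors). Without replicate 3 of both ERRKO groups the calls of Rarres2 (adjusted p = 0.163), C3 (adjusted p = 0.0785) and Erp44 (adjusted p = 0.0529) were lost. Gpx3, a plasma glutathione peroxidase, averaged 899 ± 17.6 in ERRKO_CL and 1331 ± 257 in ERRKO_PBS, against 374 ± 104 in WT_CL and 2167 ± 179 in WT_PBS (SD, n = 3 each).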

How the results depend on the processing

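Of 573 alternative values of called adipokine differences, 528 stayed called with the same direction, 45 lost the call and none reversed. Of the values not called, 403 were unaltered in direction and call, 28 became called and 17 reversed. Of the alternative values of related genes, 1295 were unaltered, 47 lost the call and 7 reversed. On the deposited scale the whole-table counts became 8877 for ERRKO_PBS against WT_PBS (8115 higher, 762 lower), 9451 for ERRKO_CL against WT_CL (8640 higher, 811 lower) and 2068 for ERRKO_CL against ERRKO_PBS (396 higher, 1672 lower), beside 4189, 5078 and 1261. There the genotype difference turned to 0.0038 for Adipor1, 0.14 for Cdh13, 0.015 for Cd59a and 0.13 for Rdh10 under PBS, and to 0.33 for Adipor1, 0.21 for Cdh13 and 0.30 for Rdh10 under CL316,243. Retn turned to -0.018 for the WT agonist change and Inhbb to -0.15 for the ERRKO agonist change. Quantile normalization gave -0.0058 for the Inhbb change in ERRKO, -0.11 for the Ccdc80 interaction and 4 adipokines with a called interaction, among them Adipoq and Cfd. With no filter 1 adipokine was called for ERRKO_CL against ERRKO_PBS, and 1 had a called interaction. By edgeR the Agt change in ERRKO was -0.054 (TMM) and -0.022 (RLE). Without replicate 3 of both ERRKO groups, 1 adipokine and 474 genes were called for ERRKO_CL against ERRKO_PBS, 1 adipokine and 215 genes for the interaction, the Agt change in ERRKO was -0.17 and the Ccdc80 interaction -0.19. With each library left out in turn, the adipokines called numbered 6 to 8 for ERRKO_PBS against WT_PBS, 7 to 8 for ERRKO_CL against WT_CL, 5 to 6 for WT_CL against WT_PBS, 0 to 5 for ERRKO_CL against ERRKO_PBS, and 1 to 3 with a called interaction. All genes called numbered 3344 to 4188, 4282 to 5487, 2733 to 3903, 513 to 1640 and 225 to 820 in the same order. Values that changed sign with a library left out spanned -0.31 to 0.90 (Agt, ERRKO_PBS against WT_PBS), -0.28 to 0.93 (Agt, ERRKO_CL against ERRKO_PBS), -0.043 to 1.17 (Agt, interaction), -0.11 to 0.76 (Retn, WT_CL against WT_PBS), -0.092 to 0.17 (Inhbb, ERRKO_CL against ERRKO_PBS) and -0.21 to 0.54 (Ccdc80, interaction). Whether replicate numbers pair the libraries was not settled. Deviations of same-numbered libraries correlated at a median of 0.039 over 18 pairs (-0.39 to 0.45), against -0.052 over 36 other pairs (-0.47 to 0.45). Of 12 libraries 5 correlated best with their own number. The replicate block called 7, 8, 5, 2 and 2 adipokines in the 5 comparisons and 4070, 4920, 3522, 1079 and 371 genes. The cause of these shifts was not tested. Agt rested on 7 to 134 reads a library.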
